A study of Arabidopsis thaliana with 12 samples.

Results

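The late steps of anthocyanin synthesis were followed through 4 genes: DFR, AT4G14090 (UGT75C1), UF3GT and AT5MAT. They were chosen by biochemical role, but with earlier results of these data known. Each was read by its only probe set paired with that gene alone. The 4 genes described here are thus 4 of 13350 genes with such a probe set, and their probe sets 4 of 22746 in all. UGT78D2, another late gene with such a probe set, is not among the 4 and is described apart. All 4 were measured on all 12 arrays. The members were whole-plant transcripts of Arabidopsis thaliana, Columbia (Col-0), collected from germinants 12 days old that had grown on wetted glass fibre discs, with 50 seeds and 2 mL of liquid per dish. The 4 groups of 3 arrays were germinants on 0.1 mM KCl, on titania (TiO2) particles at 500 mg per L, on sterile purified water, and on ceria (CeO2) particles at 500 mg per L. KCl was the control named for TiO2, and water the control named for CeO2, but the labels do not name the liquid in which the particles were suspended. All groups carried the same wild-type background, and no group was given both particles. The labels call the KCl and TiO2 arrays biological replicates and the water and CeO2 arrays only replicates. Where separate cultures are not stated, the p-values measure the spread between these arrays, which may be technical.

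Anthocyanins are red to purple flavonoid pigments that are stored in the vacuole and colour stressed or strongly lit Arabidopsis seedlings. Early enzymes of the pathway, shared with the colourless flavonols, build dihydroflavonols. Late enzymes reduce these to colourless leucoanthocyanidins, oxidise those to coloured anthocyanidins and then attach sugars and acyl groups that stabilise the pigment. In Arabidopsis the late genes are switched on together by a complex of MYB, bHLH and WD40 proteins. DFR, dihydroflavonol reductase, is the committing late enzyme. UF3GT, also called UGT79B1, adds a xylose to the anthocyanin glucoside, UGT75C1 adds a glucose at another position of the pigment, and AT5MAT puts a malonyl group on that glucose.

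The values are log2 expression values. Array minima ran from 2.30 to 2.51 log2, and the lowest group mean of any of the 4 genes, that of AT5MAT in TiO2, was 4.50 log2 above the smallest of these, so that no member sat at the floor of the scale. Array medians were 5.69 to 5.74 in the KCl and TiO2 arrays and 5.88 to 5.92 in the water and CeO2 arrays, and the main principal component, with 68.1% of the variance, separated these sets of arrays. KCl replicate 3, at 24.6 on that component, stood apart from 35.6 and 37.0 for its fellow arrays, as did CeO2 replicate 3, at −28.6, from −38.7 and −35.5. Levels set across the sets may carry a difference of normalization, and each particle is therefore compared with its own control. In whole germinants, fewer cells of a type and less RNA per cell cannot be told apart.

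TiO2 against KCl asks which transcripts differ in germinants grown on titania. All 4 late anthocyanin genes were lower in TiO2, by 1.46-fold to 2.12-fold, and for each of them every TiO2 array lay below every KCl array. AT4G14090 and DFR had the larger falls, and UF3GT and AT5MAT the smaller ones. Differences were fitted with limma over the 12 arrays, with Benjamini-Hochberg adjustment across every probe set and a call at an adjusted p under 0.05. All 4 members passed as lower, where 5.86% of all probe sets did, and groups without overlap, lower in TiO2, were found for 11.3% of all probe sets. The median difference of the 4 genes was −0.73 log2, against 0.02 over all probe sets. The members were chosen with these results known, so their count is a description of the 4 genes and not of the pathway as a whole.

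DFR, at the entry to the late branch, stood at 10.35, 10.39 and 10.35 log2 on the 3 KCl arrays and at 9.68, 9.54 and 9.27 on the TiO2 arrays. The KCl arrays were close together, and all TiO2 arrays lay well under them. The group means were 10.37 ± 0.02 and 9.49 ± 0.21 (log2, SD, n = 3). DFR fell by 0.87 ± 0.10 log2 (SE), 1.83-fold, with a 95% confidence interval from −1.08 to −0.66 (limma adjusted p = 3.50e-05). Of all probe sets, 1.06% had a difference as low or lower.

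AT4G14090, the glucosyltransferase UGT75C1, had values of 10.09, 10.27 and 10.32 log2 on KCl and 9.47, 9.22 and 8.73 on TiO2. The lowest KCl array was above the highest TiO2 array, and the TiO2 arrays were spread over a wider range than the KCl arrays. Its means were 10.23 ± 0.12 and 9.14 ± 0.37 (SD, n = 3). It fell by 1.09 ± 0.15 log2, or 2.12-fold, the largest change of the 4 (interval −1.40 to −0.78, limma adjusted p = 0.000152), and 0.585% of all probe sets had a difference as low or lower.

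UF3GT, the xylosyltransferase, was at 10.20, 10.18 and 9.95 log2 on KCl and at 9.79, 9.60 and 9.20 on TiO2. KCl replicate 3 and TiO2 replicate 1 were the nearest arrays of the groups and did not meet. The means of 10.11 ± 0.14 and 9.53 ± 0.30 (SD, n = 3) differed by −0.58 ± 0.13 log2, or 1.5-fold (interval −0.87 to −0.30, limma adjusted p = 0.0102). A difference as low or lower was held by 2.69% of all probe sets. When limma was fitted to the 6 compared arrays alone the adjusted p of UF3GT was 0.0520.

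AT5MAT, the malonyltransferase that acts on the sugar placed by UGT75C1, was at 7.46, 7.25 and 7.33 log2 on KCl and at 6.97, 6.96 and 6.48 on TiO2. TiO2 replicate 3 lay apart below the others, which were close together. Its means were 7.35 ± 0.11 and 6.80 ± 0.28 (SD, n = 3), and it fell by 0.55 ± 0.12 log2, or 1.46-fold (interval −0.80 to −0.29, limma adjusted p = 0.00807). For 3.09% of all probe sets the difference was as low or lower. In the limma fit of the 6 compared arrays the adjusted p of AT5MAT was 0.0506. The intervals of the 4 falls overlapped, those of AT4G14090 and AT5MAT only between −0.80 and −0.78, and differences in size between members were not tested.

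**Figure D1:**
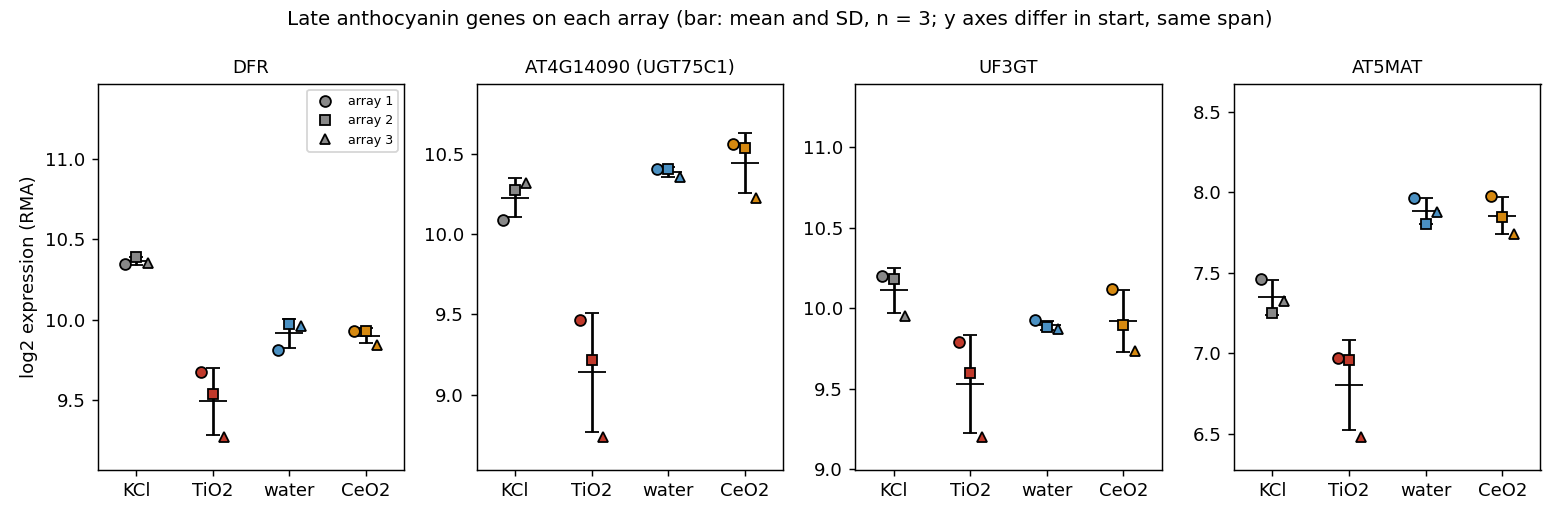
Expression of DFR, AT4G14090, UF3GT and AT5MAT (log2, y axis) on each array of the 4 groups (x axis); symbols mark array 1, 2 or 3, and the bars give the mean and SD (n = 3). The TiO2 arrays lie below the KCl arrays in every panel, while the water and CeO2 arrays overlap; the y axes start at different values and have the same span.

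CeO2 against water asks the same of ceria. None of the 4 genes passed the threshold in CeO2, where 2.42% of all probe sets did, and their differences lay between −0.03 and 0.05 log2. The arrays of the groups overlapped for every member, and 16.8% of all probe sets had groups without overlap in either direction. The median difference of the 4 was 0.01 log2, against −0.01 over all probe sets.

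DFR was at 9.81, 9.98 and 9.96 log2 on water and at 9.93, 9.93 and 9.85 on CeO2. All 3 CeO2 arrays lay inside the range of the water arrays. The difference was −0.01 ± 0.10 log2, with an interval from −0.23 to 0.20 (limma adjusted p = 0.994).

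AT4G14090 was at 10.40, 10.40 and 10.35 log2 on water and at 10.56, 10.54 and 10.22 on CeO2, with CeO2 arrays both above and below the water arrays. Its difference was 0.05 ± 0.15 log2 (interval −0.26 to 0.36, limma adjusted p = 0.983). UF3GT was at 9.93, 9.88 and 9.87 log2 on water and at 10.12, 9.90 and 9.74 on CeO2, again with 1 CeO2 array above, 1 within and 1 below the water arrays. Its difference was 0.03 ± 0.13 log2 (interval −0.26 to 0.31, limma adjusted p = 0.994).

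AT5MAT was at 7.97, 7.80 and 7.88 log2 on water and at 7.98, 7.85 and 7.74 on CeO2. The groups covered nearly the same range. Its difference was −0.03 ± 0.12 log2 (interval −0.29 to 0.23, limma adjusted p = 0.991). The widest of these intervals, that of AT4G14090, ran to 0.36 log2. Differences of this size could not be told from none with 3 arrays per group. The falls seen under TiO2 lay outside the CeO2 interval of each gene, which is not a test of the difference of effects. UF3GT and AT5MAT did not pass that test (limma adjusted p = 0.0635 and 0.0830).

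**Figure D2:**
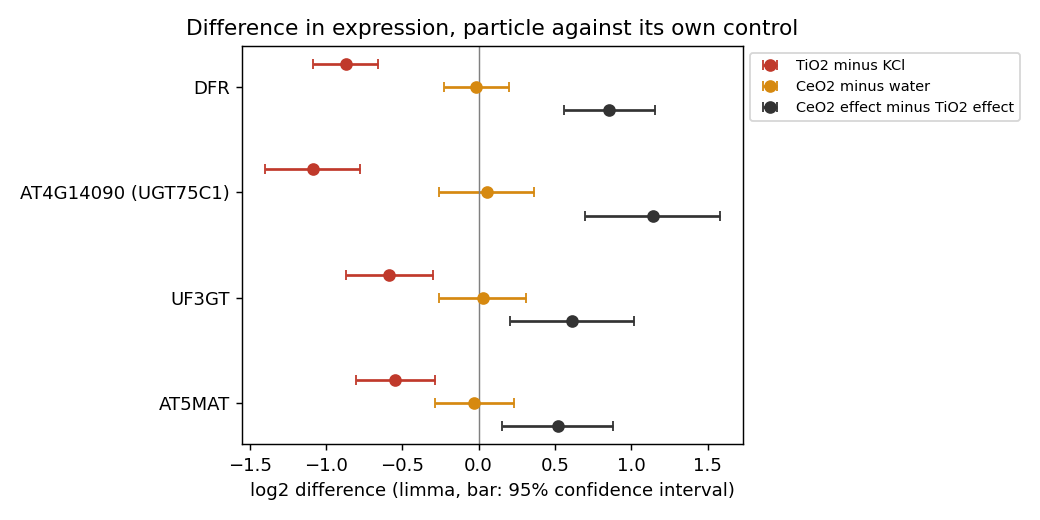
Log2 difference (x axis) of each gene (y axis) for TiO2 minus KCl, CeO2 minus water and the CeO2 effect minus the TiO2 effect; points are limma estimates over 12 arrays and bars are 95% confidence intervals. All TiO2 intervals lie below 0, all CeO2 intervals include 0, and the differences of effects range from 0.52 to 1.14.

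Whether the members responded differently to the particles was tested as the CeO2 effect minus the TiO2 effect. The test was passed by 2 of the 4 genes, where 8.06% of all probe sets passed in either direction and 4.64% were more positive under CeO2. For DFR the difference of effects was 0.86 ± 0.14 log2 (interval 0.56 to 1.16, limma adjusted p = 0.00102), and for AT4G14090 it was 1.14 ± 0.21 log2 (interval 0.70 to 1.58, limma adjusted p = 0.00218). UF3GT, at 0.61 ± 0.19 log2 (limma adjusted p = 0.0635), and AT5MAT, at 0.52 ± 0.17 log2 (limma adjusted p = 0.0830), did not pass. Particle, control liquid and set of arrays cannot be told apart in this contrast.

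The order of the 4 group means differed between the genes, with TiO2 always at the bottom. TiO2 had the lowest mean for 4 of 4 members, as it did for 24.8% of all probe sets, and after a second quantile normalization of the 12 arrays again for 4 of 4, against 25.3%. DFR was highest in KCl at 10.37, above water at 9.92 ± 0.09 and CeO2 at 9.90 ± 0.05 (log2, SD, n = 3), whose arrays overlapped. UF3GT was also highest in KCl, at 10.11, but its KCl arrays overlapped those of CeO2 (9.92 ± 0.19) and lay just above those of water (9.89 ± 0.03), and the CeO2 arrays reached down into the range of TiO2. AT4G14090 had its highest means in CeO2 (10.44 ± 0.19) and water (10.39 ± 0.03), with KCl arrays that overlapped those of CeO2 and lay just below those of water. AT5MAT was highest in water (7.88 ± 0.08) and CeO2 (7.86 ± 0.12), both clear of KCl at 7.35 and of TiO2. DFR and AT5MAT thus held opposite orders of KCl and water, and kept them after the second quantile normalization, at 10.31 and 9.95 for DFR and at 7.39 and 7.85 for AT5MAT.

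**Figure D3:**
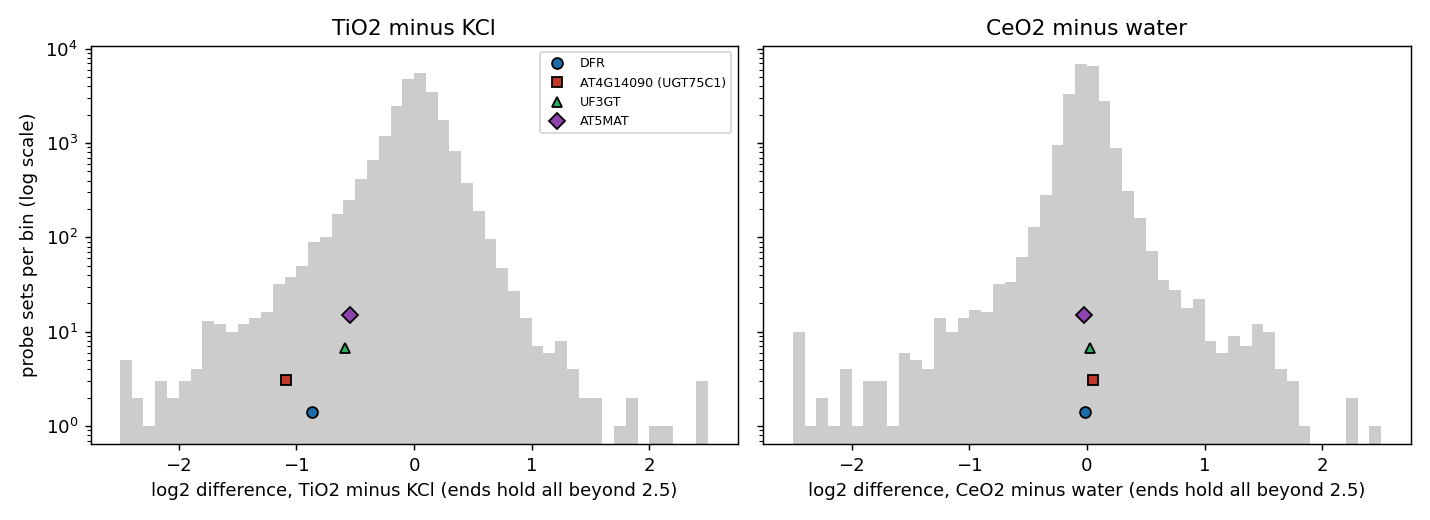
Number of probe sets (y axis, log scale) by log2 difference (x axis) for TiO2 minus KCl on the left and CeO2 minus water on the right; coloured symbols mark the 4 genes at their own differences, and their height carries no value. Under TiO2 the 4 genes lie in the lower tail, from −1.09 to −0.55, and under CeO2 they lie in the centre.

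Within the TiO2 group the 4 genes lay on the same side of their group means on each array. TiO2 replicate 3 was the lowest TiO2 array for 4 of 4 members (32% of all probe sets), by 0.23 to 0.40 log2 below the group mean, and TiO2 replicate 1 was above the mean for all 4, by 0.17 to 0.33. In CeO2, replicate 3 was the lowest for 4 of 4 members as well (34.2% of all probe sets), by 0.06 to 0.21 log2. On 5 of the 12 arrays all members lay on 1 side of their group mean, and these were the 3 TiO2 arrays and CeO2 replicates 1 and 3. How often other sets of 4 genes do so was not measured. The 3 deviations of a group cancel, so its arrays do not count separately. The SD in TiO2 exceeded that in KCl for all 4 genes, as it did for 49.9% of all probe sets. Without TiO2 replicate 3 the changes were −0.76 log2 for DFR, −0.88 for AT4G14090, −0.42 for UF3GT and −0.38 for AT5MAT, all still past the threshold (limma adjusted p = 0.000127, 0.000294, 0.0471 and 0.0318). Without KCl replicate 3 they were −0.88, −1.04, −0.66 and −0.56 in the same order.

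Likeness of profile was measured as the root mean square difference over the 12 arrays, after the mean of the 6 arrays of the same set was taken from each value. DFR differed from the mean profile of the other 3 members by 0.10 log2, which placed it at rank 2 of 13510 probe sets of 1 gene. UF3GT ranked 9 (0.12 log2) and AT5MAT 15 (0.14 log2), while AT4G14090, with its deeper fall, ranked 298 (0.18 log2). The members were chosen with the TiO2 and KCl results known, and the same arrays enter these ranks. The ranks are therefore a description and not a test of shared regulation. The genes nearest to the mean profile of the 4 members were AT5G11090 at 0.08 log2, then AT5G59050, AT5G35970, AT1G01390, THIC and AT1G52870 at 0.10 to 0.11 log2. THIC makes the pyrimidine part of thiamine. Since nearness was measured with the TiO2 and KCl arrays, the changes of these genes in TiO2 are given without a test: AT5G11090 was at −0.74 log2, THIC at −0.71 and AT1G01390, the lowest, at −0.93. With all 12 arrays centred together, AT5G11090 was the 1 gene of the 6 that stayed among the nearest 6.

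**Figure D4:**
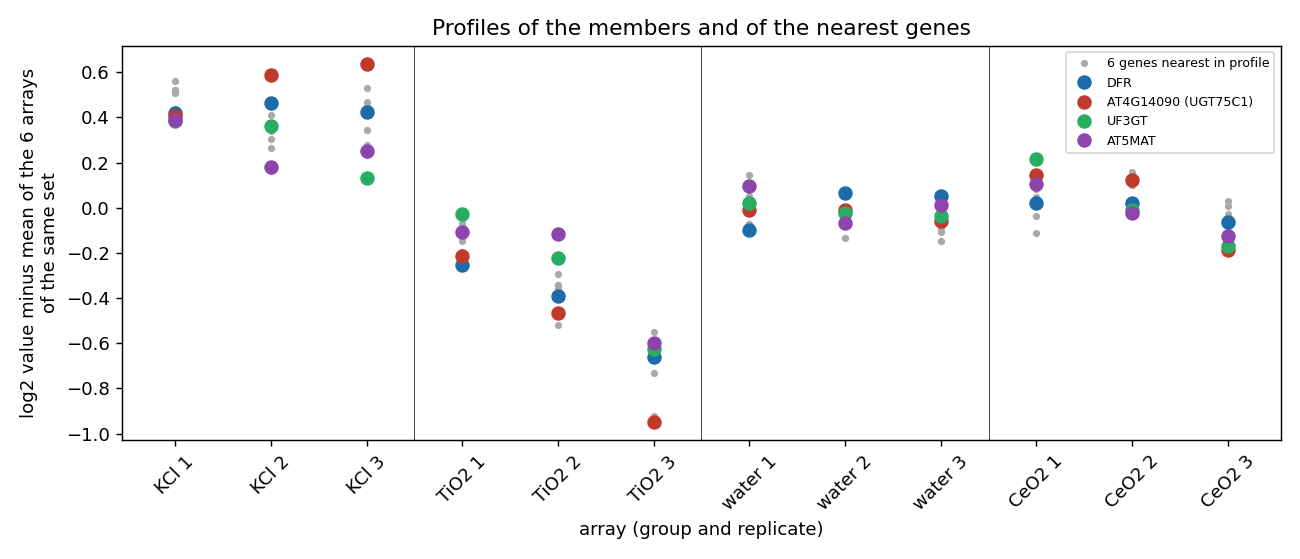
Log2 value minus the mean of the 6 arrays of the same set (y axis) on each of the 12 arrays (x axis) for the 4 members (coloured) and the 6 genes nearest to their mean profile (grey). The members lie above 0 on the KCl arrays and below 0 on the TiO2 arrays, with replicate 3 lowest. On the water and CeO2 arrays they lie between −0.19 and 0.22.

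Of 53 other genes listed for the pathway and its regulators, 5 had a probe set paired with 1 gene. No gene of the MYB, bHLH and WD40 activators, of the repressors or of general phenylpropanoid synthesis was among them, and these genes are not analysed here. The supplied annotation gave no gene for 8730 probe sets, so listed genes without a pair may still have probe sets on the arrays. In TiO2, where 5.86% of all probe sets passed as lower, 2 of the 5 fell and 3 did not pass, with a median of −0.22 log2. In CeO2 none of the 5 passed, where 2.42% of all probe sets did in either direction, with a median of 0.08.

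UGT78D2, which puts the glucose on flavonoids that UF3GT later extends, was at 10.58, 10.78 and 10.41 log2 on KCl and at 10.38, 10.31 and 10.01 on TiO2. The lowest KCl array was just above the highest TiO2 array. It fell by 0.36 ± 0.11 log2 (limma adjusted p = 0.0476), less than any of the 4 members, and the call held in 5 of 18 alternatives, with adjusted p up to 0.205 without TiO2 replicate 3. CHIL, a chalcone isomerase-like protein that assists the early enzymes, was at 10.35, 10.45 and 10.51 log2 on KCl and at 10.15, 10.14 and 10.03 on TiO2, with no overlap. It fell by 0.33 ± 0.08 log2 (limma adjusted p = 0.0169), a call that held in 14 of 18 alternatives and was lost without KCl replicate 2 or 3 or TiO2 replicate 3 (0.0528, 0.0503 and 0.0668) and with only the compared arrays (0.0638).

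The flavonol branch competes with DFR for dihydroflavonols. Of its genes with a probe set of 1 gene, UGT78D1, a rhamnosyltransferase, was at −0.14 ± 0.12 log2 in TiO2 (limma adjusted p = 0.573). AT1G06000, named UGT89C1 in the gene list, was at −0.22 ± 0.10 (limma adjusted p = 0.217). BAN, anthocyanidin reductase, which draws anthocyanidins into the tannins of the seed coat, had means of 4.08 ± 0.08 log2 on KCl and 4.23 ± 0.16 on TiO2 (SD, n = 3), low on the scale, and a difference of 0.15 ± 0.11 (limma adjusted p = 0.470). In CeO2 the 5 genes lay between 0.02 and 0.15 log2 from water. The CeO2 effect minus the TiO2 effect passed for 1 of the 5, where 4.64% of all probe sets passed as more positive under CeO2. This was CHIL, at 0.40 ± 0.12 log2 (limma adjusted p = 0.04996), a call that held in 2 of 17 alternatives.

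Markers of other tissues were read beside the members. Of 18 seed maturation genes, 5 had a probe set of 1 gene. All 5 fell in TiO2, where 5.86% of all probe sets passed as lower, by a median of 1.58 log2. M17, a late embryogenesis gene, fell by 2.22 ± 0.36 log2 (limma adjusted p = 0.000763), the storage protein gene PAP85 fell by 1.38 ± 0.28 (limma adjusted p = 0.00420), and AtLEA4-1, also of late embryogenesis, and AT3G01570 fell by 1.24 ± 0.25 and 1.58 ± 0.19 (limma adjusted p = 0.00450 and 6.72e-05). The summed linear signal of these 5 genes was 734.4 to 1330 on the KCl arrays, 220.3 to 487.9 on TiO2, 959 to 1253 on water and 903.7 to 1194 on CeO2. Within TiO2 it was highest on replicate 3, at 487.9 against 222.1 and 220.3, the array on which all 4 anthocyanin genes were lowest. The seed signal and the anthocyanin genes were thus both lower in TiO2 than in KCl, and the part of seed tissue in the result was not tested.

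Of 12 green shoot genes 3 had a probe set of 1 gene. Of these 1 fell in TiO2, where 5.86% of all probe sets did, and 2 did not pass. LHCB4.2, a light harvesting gene, fell by 0.35 ± 0.09 log2 (limma adjusted p = 0.0257), a call lost without KCl replicate 1 or 3 or TiO2 replicate 2 or 3 (0.0785, 0.0901, 0.0818 and 0.0897) and with only the compared arrays (0.108). The related LHCB4.1 was at −0.09 ± 0.08 (limma adjusted p = 0.603), and RCA, Rubisco activase, was at 0.03 ± 0.08 (limma adjusted p = 0.893), with means of 13.69 ± 0.05 log2 on KCl and 13.72 ± 0.08 on TiO2 (SD, n = 3). The summed signal of the 3 was 32520 to 36820 on KCl and 31090 to 33840 on TiO2, ranges that overlap, and 29230 to 29640 on water and 29130 to 30400 on CeO2. Of 9 root genes 3 had a probe set of 1 gene. There was 1 fall in TiO2, where 5.86% of all probe sets fell, and 3 rises in CeO2, where 1.26% rose. In TiO2 the brightest of them, AT4G26010, fell by 0.44 ± 0.12 log2 (limma adjusted p = 0.0267), a call lost without KCl replicate 2 or TiO2 replicate 1 or 3 (0.105, 0.0646 and 0.109), while the root hair expansin genes EXPA7 and EXPA18 were at 0.34 ± 0.13 and 0.07 ± 0.12 (limma adjusted p = 0.129 and 0.823). In CeO2 AT4G26010 rose by 1.26, EXPA7 by 0.96 and EXPA18 by 1.44 log2 (limma adjusted p = 6.50e-06, 0.000352 and 2.13e-06). Their summed signal, in which AT4G26010 weighs most, was 2601 to 2989 on KCl and 2223 to 2468 on TiO2, and 1369 to 1850 on water and 3625 to 4296 on CeO2. The summed signal of these 3 genes was higher on every CeO2 array than on every water array. In CeO2 the 4 anthocyanin genes differed from their water means by −0.03 to 0.05 log2. Other listed root genes, such as CASP1, CASP2, GL2 and MYB36, had no probe set of 1 gene. The 3 genes may not stand for root tissue as a whole, and its part in the TiO2 and CeO2 results was not tested.

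**Figure D5:**
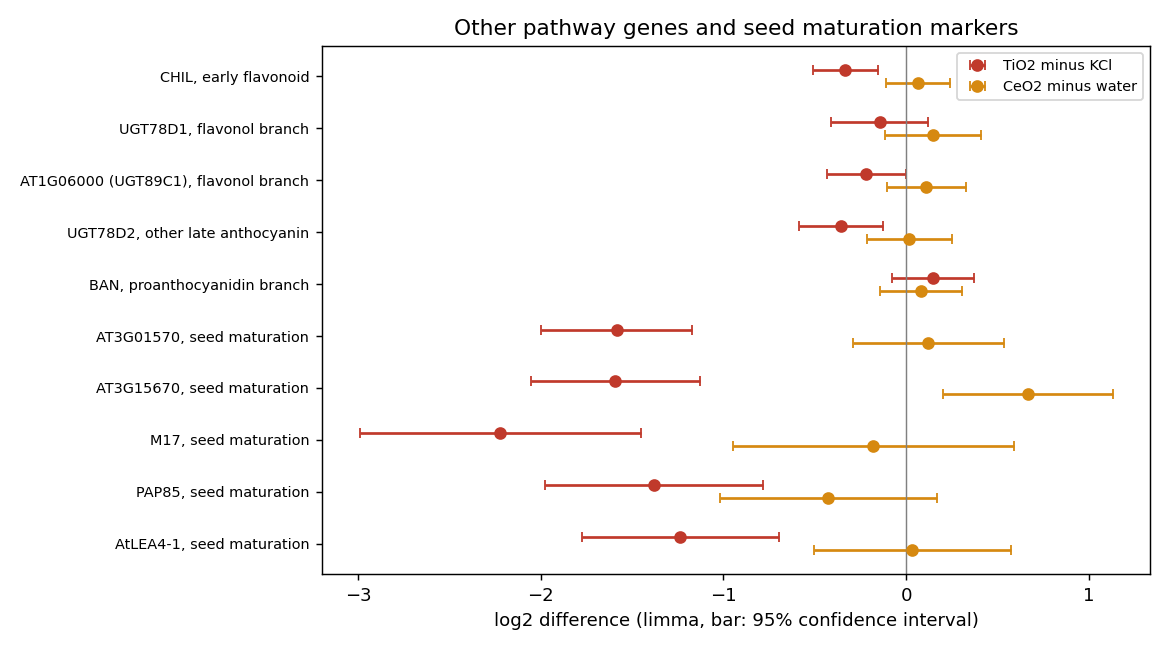
Log2 difference (x axis) for TiO2 minus KCl and CeO2 minus water. The y axis lists the 5 other pathway genes and the 5 seed maturation genes with a probe set of 1 gene. Points are limma estimates and bars are 95% confidence intervals. CHIL and UGT78D2 lie at −0.33 and −0.36 in TiO2, and the seed maturation genes at −1.24 to −2.22.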

How the data were processed

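The authors deposited log2 expression values per probe set for 12 Affymetrix arrays, which per the submitters' processing notes come from robust multi-array average (RMA). Its version, the probe definitions and whether the 12 arrays were normalized together are not given in the sources used here. No dim probe set was left out of the 22746. The supplied probe annotation and RefSeq symbols paired 13513 probe sets with 1 gene, 503 with several and 8730 with none.

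A limma model (version 3.58.1, R 4.3.3) gave each group its own mean, with 12 arrays in the fit and empirical Bayes moderation (8 residual and 7.63 prior degrees of freedom). Tests were two-sided, with Benjamini-Hochberg adjustment over all probe sets. The fit was tested on simulated data. Groups came from the sample titles. The precision is limited by 3 arrays per group.

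The members and gene lists were chosen with earlier results of these data known. Text names the 4 members, every measured gene of the pathway lists, up to 4 measured genes per tissue list by brightness and the 6 genes nearest in profile. Alternatives were 2 other normalizations, a filter of the dimmest 30% of probe sets, an intensity trend with robust prior, a replicate block, the compared arrays alone, each array left out and an exact permutation test.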

Additional observations from a re-analysis of the deposited data

Results flagged for a closer look

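For 2 of the 4 genes the effects of the particles differed by a test of the difference itself. Of all probe sets, 8.06% passed this test in either direction and 4.64% were more positive under CeO2. The 4 genes were chosen with earlier results of these data known. The effect of CeO2 less that of TiO2 came to 0.86 log2 for DFR and 1.14 log2 for AT4G14090 (limma adjusted p = 0.00102 and 0.00218), from falls in TiO2 and differences of −0.01 and 0.05 in CeO2. Both held in 17 of 17 alternatives, with adjusted p of at most 0.00407 and 0.00878. Particle, control liquid and set of arrays cannot be told apart in this contrast.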

How the results depend on the processing

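In TiO2 against KCl, DFR and AT4G14090 passed the threshold in 18 of 18 alternatives, and UF3GT and AT5MAT in 17 of 18. The permutation test is not among the 18. Leaving out a water or CeO2 array changed only the spread behind these p-values, not the differences. With only the compared arrays UF3GT was at −0.58 (limma adjusted p = 0.0520) and AT5MAT at −0.55 (0.0506). The count of calls over all probe sets was then 1432 against 2407. That fit has fewer arrays behind its spread and leaves out the water and CeO2 arrays. The SDs of UF3GT were 0.14 in KCl, 0.30 in TiO2, 0.03 in water and 0.19 in CeO2. Those of AT5MAT were 0.11, 0.28, 0.08 and 0.12 in the same order. The main fit pools these spreads, so its TiO2 errors, intervals and p-values rest partly on the water and CeO2 arrays. The exact permutation test of 3 against 3 arrays gave p = 0.1 for each of the 4, the smallest p it allows. Leaving out 1 array gave −0.96 to −0.76 for DFR, −1.25 to −0.88 for AT4G14090, −0.72 to −0.42 for UF3GT, −0.63 to −0.38 for AT5MAT and 1782 to 2551 calls. In CeO2 against water none of the 4 passed in any of 18 alternatives. Their values near 0 changed sign without some arrays: DFR without water replicate 2 or 3 or CeO2 replicate 3 (0.0157, 0.00930 and 0.0137), AT4G14090 and UF3GT without CeO2 replicate 1 (−0.00512 and −0.0756), and AT5MAT without water replicate 1 or CeO2 replicate 3 (0.0137 and 0.0284). The ranges were −0.0671 to 0.0157 for DFR, −0.00512 to 0.161 for AT4G14090, −0.0756 to 0.117 for UF3GT, −0.0884 to 0.0284 for AT5MAT and 382 to 640 calls.

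The difference of effects of UF3GT, 0.61 (adjusted p = 0.0635), passed with an intensity trend and robust prior (0.61, 0.0421), with the replicate block (0.61, 0.0143) and without KCl replicate 3 or TiO2 replicate 1 (0.69 and 0.74), over 0.44 to 0.74 with 1 array left out. That of AT5MAT, 0.52, passed with the replicate block (0.52, 0.0498), over 0.36 to 0.60; DFR ranged over 0.74 to 0.95, AT4G14090 over 0.94 to 1.30 and the calls over 1434 to 2072. The cause was not tested. Same-numbered control and particle arrays had correlated deviations of 0.11, 0.05 and 0.27 for KCl with TiO2 and 0.30, 0.002 and 0.06 for water with CeO2, so the numbers were not taken to pair the arrays, and not every array correlated best with its own number. With the replicate block the calls numbered 2886, 647 and 2148 in place of 2407, 550 and 1833, and the call of none of the 4 genes was lost. With all 12 arrays centred together, 1 of the 6 genes nearest in profile was shared.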
